A study of Homo sapiens with 6 samples.

Results

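Cancer-testis antigen genes were read from 45 probe sets of 33 genes, out of 54613 probe sets and 19775 genes, in PC9 cells, which are sensitive to gefitinib, and in PC9/gef cells, which are resistant to it. PC9 is a human lung adenocarcinoma cell line, and PC9/gef is 1 resistant line selected from it by continuous exposure to rising concentrations of gefitinib, an inhibitor of the EGFR kinase. Both lines were grown in RPMI-1640 medium with fetal bovine serum, and each was measured on 3 Affymetrix arrays, 1 array per sample labelled as a biological replicate. The sources used here do not say whether the replicates were separate cultures, so p-values measure the spread between these samples, which may be technical. Members were all probe sets annotated to 1 gene whose symbol begins with CTAG, MAGEA, MAGEB, MAGEC, GAGE, PAGE, XAGE or SSX and then a digit, or is PRAME, CTCFL, BRDT, SYCP1, DDX43 or TEX14. The letters of this rule also take in SSX2IP, which encodes a binding partner of an SSX protein at the centrosome and is not a cancer-testis antigen, so it is given apart. Values are log2 expression values as deposited, and a log2 change is PC9/gef minus PC9.

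Cancer-testis antigens are proteins whose genes are transcribed in the germ cells of the testis and are silent in most other adult tissues, largely through methylation of the CpG sites of their promoters. Many tumors transcribe them again, lung cancers among them, and peptides of several are presented on HLA class I and recognized by T cells. Many lie on the X chromosome in families of near-identical copies, which short array probes separate only in part. By RefSeq, 26 of the 33 member genes were on chromosome X, 3 on chromosome 1, and 1 each on chromosomes 6, 17, 20 and 22.

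Promoters of MAGEC2, MAGEC1 and MAGEA6 are shown for the following reasons. MAGEC2 rose in PC9/gef on 1 of its probe sets, and its close relative MAGEC1 hardly changed. MAGEA6 was among the members with a strong signal in both lines. The windows are the 250 bases before the start of each gene (RefSeq, GRCh38.p14), 5′ to 3′ on the gene's strand, with every CpG in capitals. MAGEC2 is on the minus strand at chrX:142205291-142205540, MAGEC1 on the plus strand at chrX:141903644-141903893, and MAGEA6 on the minus strand at chrX:152769690-152769939.
MAGEC2: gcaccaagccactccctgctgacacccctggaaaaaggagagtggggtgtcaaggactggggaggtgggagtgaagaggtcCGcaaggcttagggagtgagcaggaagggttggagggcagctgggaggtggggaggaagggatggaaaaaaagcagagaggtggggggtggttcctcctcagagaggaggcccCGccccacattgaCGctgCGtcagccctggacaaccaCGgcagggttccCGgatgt
MAGEC1: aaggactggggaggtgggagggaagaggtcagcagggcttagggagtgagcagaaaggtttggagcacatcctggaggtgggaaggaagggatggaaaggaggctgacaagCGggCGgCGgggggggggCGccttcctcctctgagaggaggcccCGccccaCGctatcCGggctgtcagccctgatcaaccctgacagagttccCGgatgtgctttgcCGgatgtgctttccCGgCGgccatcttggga
MAGEA6: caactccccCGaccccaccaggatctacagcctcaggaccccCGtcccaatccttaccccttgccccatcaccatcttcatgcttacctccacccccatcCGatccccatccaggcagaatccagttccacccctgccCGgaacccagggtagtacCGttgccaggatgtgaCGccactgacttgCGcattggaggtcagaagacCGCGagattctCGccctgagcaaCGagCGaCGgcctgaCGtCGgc
The window of MAGEC2 held 6 CpG, that of MAGEC1 11 and that of MAGEA6 15, beside a median of 11 over the 35116 windows of the table. The windows of MAGEC1 and MAGEC2 shared a run of 20 identical bases at most, and those of MAGEA3 and MAGEA6 were identical at all 250 positions. A window was matched for 28 of the 33 member genes, with 42 windows in all since some genes have several starts. CTAG2, MAGEA1, MAGEA10, SSX3 and TEX14 had none.
Motifs of 6 letters were searched on both strands, and GGGCGG and GCGGGA can overlap. GGGCGG, the core of Sp1 sites, was in 21 of the 42 member windows and in 42.6% of all windows. CACGTG, an E-box, was in 7 (16.7%) and in 6.35% of all windows, and GCGGGA, an E2F-type sequence, in 9 (21.4%) and 23.5%. CCGGAA, an ETS-type sequence, was in 4 (9.52%) and in 14.5% of all windows, and the MAGEA6 window held it. Windows of different starts of 1 gene overlap, so these shares are descriptions, and a match does not mark a bound site.

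Array values had a median of 2.55 and ran from 1.65 to 15.72, and the number of arrays limits the precision. Olfactory receptor genes, taken as not transcribed here, set the background level: of their 135 probe sets 95% had means up to 2.65, 7 lay above it, and the highest was at 7.80. Arrays within a line correlated at r = 0.999 or more, and arrays of different lines at r = 0.994 or less. Of the epithelial markers EPCAM, KRT8, KRT18, KRT19 and CDH1, all lay far above background level in both lines, the lowest of them being CDH1 at a mean of 11.62 in PC9 and 11.81 in PC9/gef. Of the lung markers, NKX2-1, SFTPC and NAPSA were at background level in both lines, so lung identity rests on the labels, and SFTPB was at 4.31 and 4.33. The 3 leukocyte markers measured and the germ cell markers DDX4, DAZL, PRM1, PRM2, TNP1 and ACR were at background level in both lines. Of 5 fibroblast markers 3 were at background level. COL1A1 was at 7.94 and 8.46 (limma, adjusted p = 0.0573, not passing) and THY1 at 2.71 and 2.70. As in any bulk sample, a change in the share of cells that transcribe a gene and a change of its RNA per cell cannot be told apart.

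Probe sets of the NY-ESO-1 and LAGE-1 genes had by far the largest change among the cancer-testis antigens, 14.6-fold to 21.6-fold higher in PC9/gef on 5 probe sets. Only 1 of these, for LAGE-1, is not of the _x_at type, which can bind related transcripts. MAGEC2 and MAGEA10 rose more than 2-fold, MAGEC1 rose by a small amount, and MAGEA4 was lower. The rise of MAGEC2 was on a probe set named _s_at, its other probe set being at background level in both lines. The calls for MAGEC1 and MAGEA4 did not hold with some single arrays left out. MAGEA6 and MAGEA12, each on a probe set named _x_at, had a strong signal in both lines with hardly any difference. Of the 33 genes, 20 were at background level in both lines. A probe set was called at an adjusted p under 0.05 (limma, Benjamini-Hochberg over all 54613 probe sets) with a mean above background level in at least 1 line. Of the 45 member probe sets, 6 were called higher (13.3%) and 1 lower (2.22%), 12 were above background level without passing, and 26 were at background level. Over all probe sets 7.61% were called higher and 7.68% lower. By probe set, the share of members called higher lay above that of all probe sets and the share called lower below it, both resting on few calls. With each gene read from 1 probe set, 4 of the 33 member genes were higher and 1 lower. Of all genes, 12.6% were higher and 11.8% lower, so the higher share by gene was near that of all genes. Without SSX2IP, 5 of 39 probe sets were higher and 1 lower. Changes over 2-fold, the definition in the study's methods, were found for 4 member probe sets of 3 genes, all higher (8.89% of the members, beside 0.95% of all probe sets over 2-fold higher and 0.837% over 2-fold lower). The median log2 change was -0.00049 over the members and -0.00065 over all probe sets, as most of both lay at background level.

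**Figure D1:**
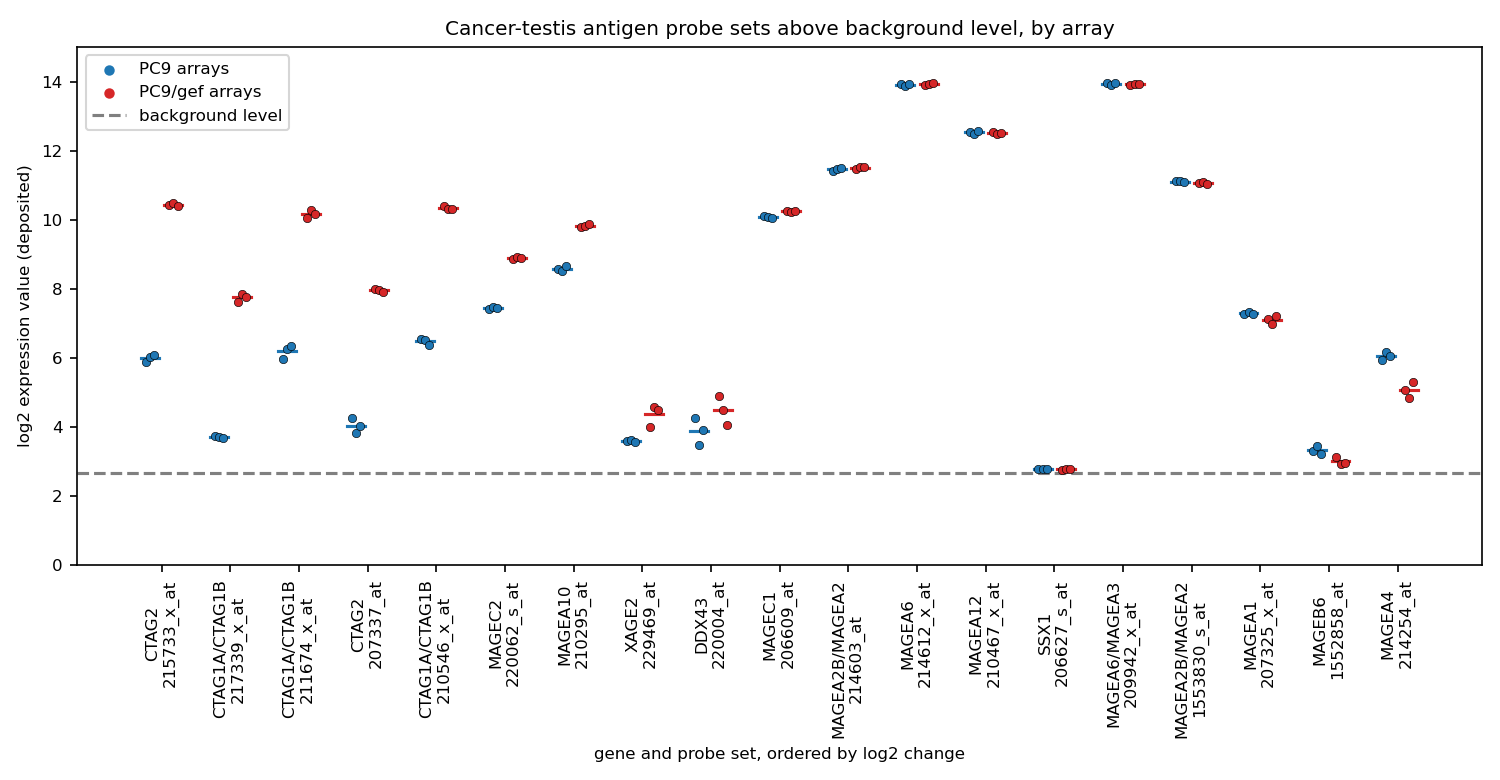
Log2 expression value (y axis) on each of the 3 PC9 arrays (blue) and 3 PC9/gef arrays (red) for the probe sets of cancer-testis antigen genes above background level, SSX2IP left out, with short lines at the mean of each line of cells and a dashed line at background level, 2.65. The probe sets are ordered by log2 change, and the 5 of CTAG1A/CTAG1B and CTAG2 at the left show PC9/gef arrays well above all PC9 arrays.

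CTAG2 encodes LAGE-1, and its neighbours CTAG1A and CTAG1B are copies that both encode NY-ESO-1, a related antigen that T cells of cancer patients often recognize. On the first of 2 CTAG2 probe sets the PC9 arrays were at 4.25, 3.83 and 4.03, and the PC9/gef arrays at 7.98, 7.97 and 7.91. Every PC9/gef array thus lay above every PC9 array. The mean rose from 4.04 ± 0.211 (SD, n = 3 arrays) to 7.96 ± 0.0418 (SD, n = 3), a log2 change of 3.92 (SE 0.119, limma adjusted p = 0.000292) or 15.1-fold (95% confidence interval 12.1 to 18.9). On the other CTAG2 probe set, named _x_at, PC9 arrays were at 5.88, 6.01 and 6.09 and PC9/gef arrays at 10.42, 10.48 and 10.39. This was a log2 change of 4.43 (SE 0.0648, adjusted p = 7.64e-05) or 21.6-fold (95% confidence interval 19.2 to 24.4). Read from this probe set, only 3 of the 19775 genes had a larger rise than CTAG2 in PC9/gef. Among all probe sets, 4 had a larger rise than this one and 10 a larger rise than the first CTAG2 probe set.
The NY-ESO-1 genes are outside the rule because their probe sets name both copies. Those 3 probe sets, all named _x_at, moved with CTAG2. On the first the PC9 arrays were at 3.73, 3.71 and 3.69 and the PC9/gef arrays at 7.62, 7.86 and 7.77, with a log2 change of 4.04 (SE 0.0663, adjusted p = 9e-05). The change was 3.97 on the second (PC9 5.97, 6.26 and 6.34; PC9/gef 10.04, 10.28 and 10.16; adjusted p = 0.000314). On the last it was 3.86 (PC9 6.54, 6.51 and 6.37; PC9/gef 10.38, 10.31 and 10.31; adjusted p = 7.48e-05). CTAG1A, CTAG1B and CTAG2 share much of their sequence, and probe sets named _x_at can bind related transcripts. The shares of the NY-ESO-1 and LAGE-1 transcripts in the change therefore cannot be told apart from the _x_at probe sets. The first CTAG2 probe set does not carry that suffix and showed a rise of similar size. All 5 probe sets also passed a test against a minimum change of 1.5-fold, with a highest adjusted p of 0.00141.

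The MAGE-A proteins share a MAGE homology domain, through which several bind RING-type ubiquitin ligases. The family's 7 member genes went different ways. MAGEA10 was at 8.58, 8.51 and 8.66 on the PC9 arrays and at 9.79, 9.81 and 9.86 on the PC9/gef arrays. It rose 2.36-fold (log2 change 1.24, SE 0.0446, adjusted p = 0.000413 by limma), and its arrays do not overlap. MAGEA4 was at 5.94, 6.17 and 6.06 in PC9 and at 5.08, 4.84 and 5.29 in PC9/gef. It was 1.98-fold lower (log2 change -0.99, SE 0.138, adjusted p = 0.0144), every PC9/gef array lying below every PC9 array. That call ended, at log2 changes of -0.93, -0.98 and -0.99, when PC9 replicate 2 (adjusted p = 0.0631), PC9 replicate 3 (0.0654) or PC9/gef replicate 1 (0.0598) was dropped.
MAGEA1, the first antigen of the family to be cloned, was at 7.28, 7.32 and 7.25 in PC9 and at 7.11, 6.98 and 7.21 in PC9/gef. The PC9/gef arrays were lower without overlap, but the log2 change of -0.18 did not pass (95% confidence interval -0.36 to -0.01, adjusted p = 0.119). MAGEA12 was at 12.54, 12.48 and 12.56 in PC9 and at 12.53, 12.49 and 12.52 in PC9/gef, with overlapping arrays and a log2 change of -0.015 (95% confidence interval -0.09 to 0.06, adjusted p = 0.696). MAGEA6 was at 13.92, 13.86 and 13.93 in PC9 and at 13.90, 13.93 and 13.97 in PC9/gef (a log2 change of 0.03, 95% confidence interval -0.05 to 0.11, adjusted p = 0.48). The interval for MAGEA6 corresponds to PC9/gef levels of 0.967 to 1.08 times those in PC9, and that for MAGEA12 to 0.942 to 1.04 times. Near the top of the signal range an array responds less to a change of RNA, and whether that touched these intervals was not tested. The probe sets of MAGEA1, MAGEA6 and MAGEA12 are all named _x_at, so related MAGE-A transcripts may add to each value and interval.
MAGEA3 and MAGEA6 are nearly identical, and the encoded proteins bind the ubiquitin ligase TRIM28. Their shared probe set was at means of 13.94 ± 0.0337 (SD, n = 3) and 13.92 ± 0.0188 (SD, n = 3), with a log2 change of -0.02 (adjusted p = 0.498). The 2 probe sets that name both MAGEA2 and MAGEA2B had log2 changes of 0.06 and -0.04, from PC9 means of 11.45 and 11.10, and did not pass (adjusted p = 0.184 and 0.229). MAGEA8 and MAGEA11 were at background level in both lines, with means from 2.30 to 2.41.

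MAGEC2, whose protein is another partner of TRIM28, was at 7.42, 7.47 and 7.45 in PC9 and at 8.85, 8.92 and 8.90 in PC9/gef on a probe set named _s_at. It rose 2.72-fold (log2 change 1.44, SE 0.0236, adjusted p = 9e-05 by limma) without overlap. Its other probe set stayed at background level, at means of 2.26 in both lines, so its probe sets disagree, and their mean gave a log2 change of 0.72 (limma adjusted p = 3.88e-05). MAGEC1, which encodes the larger antigen CT7 and lies near MAGEC2 on the X chromosome, was at 10.12, 10.08 and 10.05 in PC9 and at 10.24, 10.23 and 10.26 in PC9/gef. The PC9/gef arrays were higher without overlap, but only 1.11-fold (log2 change 0.16, 95% confidence interval 0.10 to 0.21, adjusted p = 0.0115). Leaving out PC9 replicate 2 (adjusted p = 0.0568), PC9/gef replicate 1 (0.051) or PC9/gef replicate 3 (0.0508) ended the call. MAGEC3 was at background level.

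**Figure D2:**
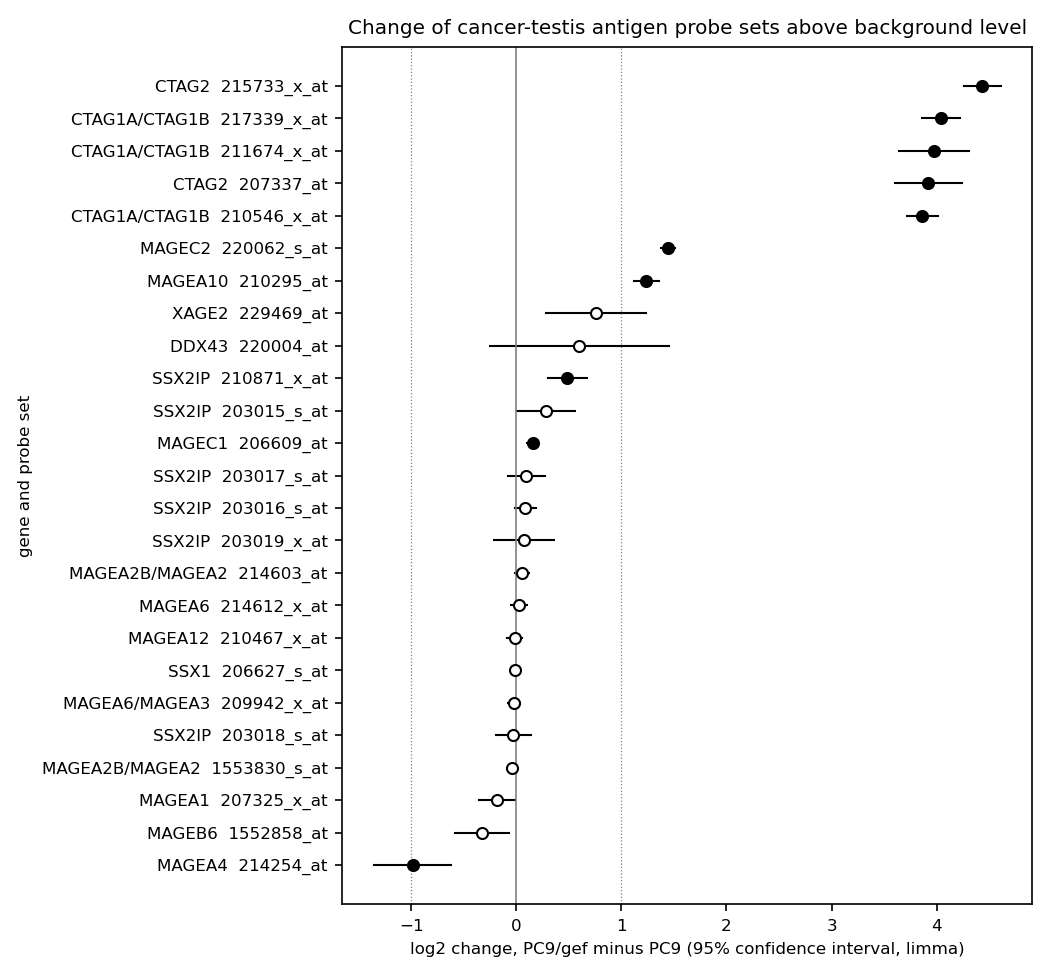
Log2 change from PC9 to PC9/gef (x axis), with its 95% confidence interval by limma for each probe set of cancer-testis antigen genes above background level, SSX2IP and the probe sets of several genes included. Filled points passed the test, open points did not, and dotted lines mark a 2-fold change. The 5 CTAG probe sets lie from 3.86 to 4.43, MAGEC2 and MAGEA10 follow at 1.44 and 1.24, and MAGEA4 is the lowest at -0.99.

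Members near background level gave weaker evidence. XAGE2, of the GAGE-like XAGE family, was at 3.60, 3.62 and 3.57 in PC9 and at 3.99, 4.59 and 4.50 in PC9/gef. Its arrays do not overlap, but the log2 change of 0.76 (SE 0.177) did not pass (adjusted p = 0.0576), and PC9/gef replicate 1 lay below the other arrays of its line. Without that array the change was 0.94 and passed (adjusted p = 0.00412), as it did with trend and robust moderation (0.0303), with a filter on dim probe sets (0.012) and in a fit on the mean over probe sets of a gene (0.0395). DDX43, an RNA helicase of the DEAD-box family, was at 4.26, 3.48 and 3.91 in PC9 and at 4.91, 4.47 and 4.06 in PC9/gef, with overlapping arrays (log2 change 0.60, 95% confidence interval -0.25 to 1.45, adjusted p = 0.241). MAGEB6 was at 3.31, 3.46 and 3.20 in PC9 and at 3.13, 2.91 and 2.96 in PC9/gef, lower without overlap but not passing (log2 change -0.32, adjusted p = 0.0894). Of the 135 olfactory receptor probe sets, 4 had a mean above each of these genes, so signals of this size also occur in probe sets taken as not transcribed. SSX1, a transcriptional repressor whose gene is fused to SS18 in synovial sarcoma, was barely above background level on 1 of its 2 probe sets, at 2.78 and 2.77 (adjusted p = 0.244).

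The other 20 member genes were at background level in both lines. Among them were PRAME, a repressor of retinoic acid receptor signaling that many tumors transcribe, at 2.22 in both lines, and CTCFL, the germ cell relative of the chromatin factor CTCF, at 2.42 and 2.41. BRDT, the testis member of the BET bromodomain family, was at 2.42 in both, SYCP1, which builds the synaptonemal complex of meiosis, at 2.41 and 2.40 on the brighter of its probe sets, and TEX14, a protein of the bridges between germ cells, at 2.33 in both. Of the 6 MAGEB genes 5 were at background level, as were all 3 PAGE genes, GAGE1, XAGE3, and SSX2B and SSX3. The 26 member probe sets at background level had means from 2.17 to 2.60. Their largest log2 change was 0.04, for XAGE3, and their median absolute change was 0.0008. None had an adjusted p under 0.05 by limma, BRDT coming closest (0.0528). Of all probe sets, 1.33% had an adjusted p under 0.05 while at background level in both lines. Of the 26 member probe sets, 10 had an unadjusted p under 0.05 by limma, and all 10 were lower. The largest of their log2 changes was -0.0076, for a MAGEB4 probe set. The share of all probe sets at this unadjusted threshold was not counted. The 10 are therefore not read as a fall of these genes. A further 14 probe sets that name several genes of the families, among them 4 of GAGE genes, 8 of SSX genes and 1 each of XAGE1A/XAGE1B and MAGEA9/MAGEA9B, were at background level too, with a largest rise of 0.15. For genes this dim the arrays could have missed a change.

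SSX2IP was measured by 6 probe sets, all named _x_at or _s_at, with means from 5.65 to 7.88. Its log2 changes ran from -0.03 to 0.49. Only 1 passed (PC9 6.23, 6.13 and 6.15; PC9/gef 6.67, 6.76 and 6.54; log2 change 0.49, adjusted p = 0.0149 by limma), and the other 5 had adjusted p values up to 0.735. In a fit on the mean over its probe sets SSX2IP passed, with a log2 change of 0.17 (limma adjusted p = 0.0144).

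The place of the risen genes on the X chromosome was set beside the 8 nearest measured protein-coding genes on either side, in RefSeq gene order and without genes of the member families, a window chosen after the changes were known. Around CTAG2, 6 of these 16 genes were higher and 2 lower, beside 12.6% higher and 11.8% lower of all genes read from 1 probe set each. GAB3, the nearest measured gene beyond CTAG2, was at background level in both lines. The next ones, MPP1, a membrane scaffold protein, and F8, the gene of coagulation factor VIII, rose. MPP1 went from 4.85, 4.68 and 4.71 in PC9 to 6.65, 6.89 and 6.80 in PC9/gef (a log2 change of 2.04, adjusted p = 0.000562 by limma). F8 went from 3.07, 3.24 and 2.89 to 5.63, 5.19 and 5.39 (log2 change 2.34, adjusted p = 0.00174). On the other side, between CTAG1A and the start of the window, the 8 genes had log2 changes from -0.32 for ATP6AP1 to 0.14 for FAM50A. IKBKG, the nearest to the CTAG genes on that side, was at means of 6.01 and 5.95 (log2 change -0.07, adjusted p = 0.463).
Around MAGEC2, 3 of 16 genes were higher, 2 lower and 9 at background level. LDOC1 was next to the MAGEC genes in this order and went from 6.87, 6.52 and 6.87 in PC9 to 9.11, 9.02 and 9.08 in PC9/gef (a log2 change of 2.32, adjusted p = 0.000849). SPANXB1, a sperm protein of the cancer-testis antigens outside the rule, followed it, going from 5.85, 5.96 and 5.75 to 7.61, 7.32 and 7.19 (a log2 change of 1.52, SE 0.133, adjusted p = 0.0036). FGF13 in the same window was lower (log2 change -1.32, adjusted p = 0.00259). Around MAGEA10, 3 of 16 genes were higher, 1 lower and 8 at background level, with log2 changes from -0.10 to 0.90, the highest being HMGB3 (adjusted p = 0.00393).

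**Figure D3:**
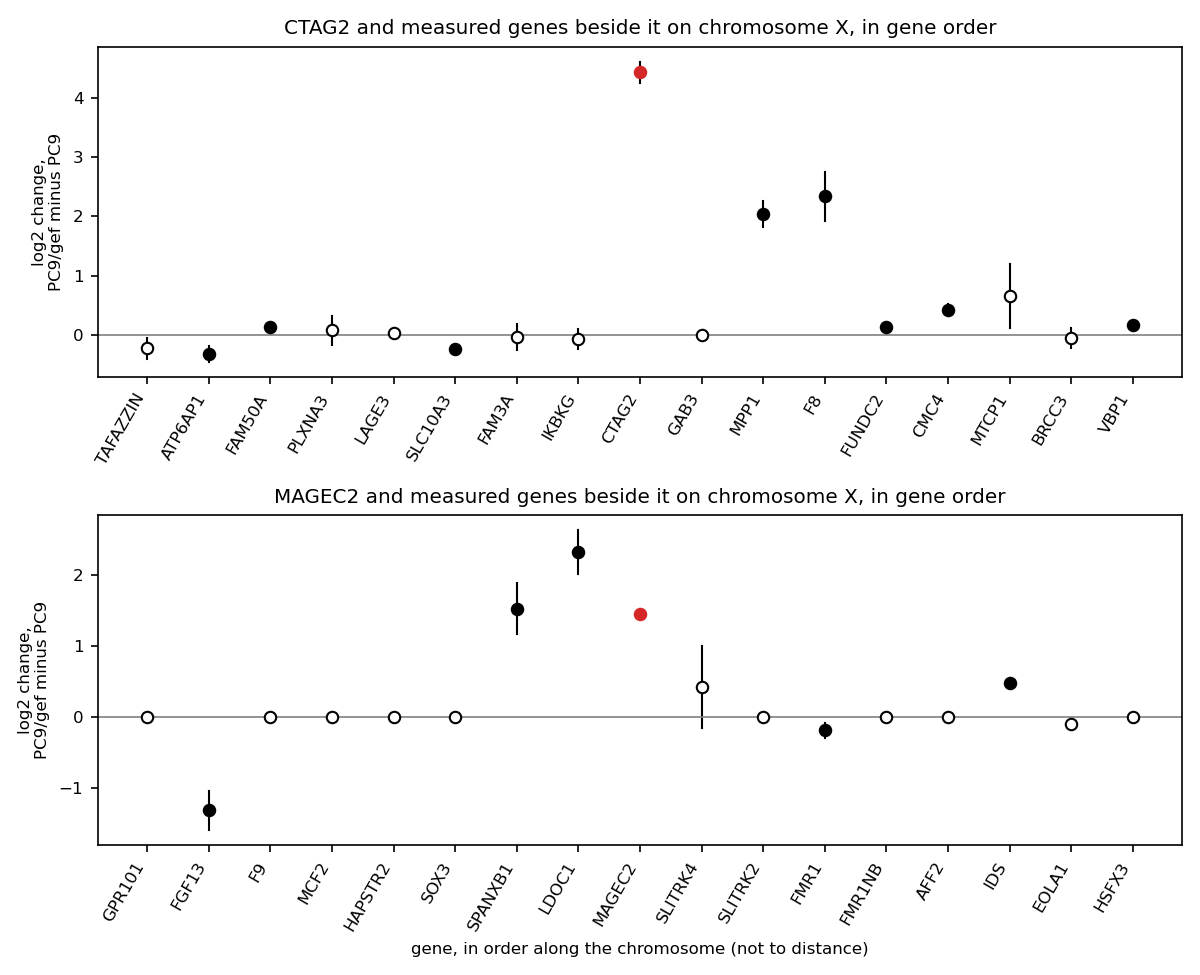
Log2 change from PC9 to PC9/gef (y axis, bars for 95% confidence intervals by limma), of CTAG2 and MAGEC2 (red) and of the 8 nearest measured protein-coding genes on either side (black) in order along chromosome X, member families left out. Filled points passed the test. MPP1 and F8 lie at 2.04 and 2.34 beyond CTAG2, and LDOC1 and SPANXB1 at 2.32 and 1.52 beside MAGEC2.

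Most other cancer-testis antigens were at background level in both lines, beside 7820 of all 19775 genes. Of 48 measured genes of a list written from general knowledge, 4 were higher, 2 lower, 7 did not pass and 35 were at background level in both lines, with a median log2 change of -0.0008. These were 8.33% higher and 4.17% lower, beside 12.6% and 11.8% of all genes. Besides SPANXB1 the higher genes were IL13RA2, a decoy receptor of interleukin-13 (log2 change 0.56, adjusted p = 0.0399 by limma), ACTL8 (0.40, adjusted p = 0.0497) and SPA17, a sperm surface protein (0.25, adjusted p = 0.00728). CT55 was 1.67-fold lower (log2 change -0.74, adjusted p = 0.00179), as was CABYR, a calcium-binding sperm tail protein, by less (-0.32, adjusted p = 0.00514). The higher count was 2 without PC9 replicate 1, PC9/gef replicate 1 or PC9/gef replicate 3.
Of 42 germ cell and meiosis genes, 36 were at background level, 4 did not pass, 2 were higher and none was lower by limma (beside 12.6% and 11.8% of all genes). At an unadjusted p under 0.05, 17 were lower, of which 1 was above background level. The rest were at background level, the largest of their log2 changes being -0.012, for PIWIL1. The share of all genes at this unadjusted threshold was not counted, so the 17 are not read as a fall of these genes. TNP2, at background level in both lines, had an adjusted p of 0.0297, and 1 gene was called lower without PC9/gef replicate 3. TDRD9, a helicase of the germ cell pathway that silences transposons, went from 4.62, 4.40 and 4.59 in PC9 to 6.20, 6.08 and 6.12 in PC9/gef (a log2 change of 1.60, SE 0.0727, adjusted p = 0.000716). TSPYL1, which is transcribed in many tissues, had a log2 change of 0.28 (adjusted p = 0.00505).
The type II MAGE genes carry the same domain but are transcribed in many tissues. Of 10 measured, 2 were lower, 1 higher, 3 did not pass and 4 were at background level (10% higher and 20% lower, beside 12.6% and 11.8% of all genes). MAGED1, a regulator of apoptosis, was 1.54-fold lower (log2 change -0.62, adjusted p = 0.00722), NSMCE3, a subunit of the SMC5/6 complex, was 1.37-fold lower (-0.45, adjusted p = 0.0169), and MAGEF1 was 1.12-fold higher (0.16, adjusted p = 0.0103). The lower count was 1 without any one of PC9 replicates 1, 2 and 3, and the higher count 0 without PC9 replicate 2.

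Genes of DNA methylation and chromatin repression moved both ways. The list holds enzymes that set or maintain repressive marks and also the TET enzymes and TDG, which act in removing DNA methylation. Its called genes changed by less than 2-fold. Of 43 measured, 8 were higher, 8 lower, 25 did not pass and 2 were at background level (18.6% higher and 18.6% lower, beside 12.6% and 11.8% of all genes, and a median log2 change of -0.07). With _x_at and _s_at probe sets left out, 4 were higher and 5 lower. The maintenance methyltransferase DNMT1 went from 11.28 to 11.18 (log2 change -0.11, 95% confidence interval -0.18 to -0.04, adjusted p = 0.0615 by limma). UHRF1, which brings it to replicating DNA, had a log2 change of -0.11 (adjusted p = 0.0948). The de novo methyltransferases DNMT3A and DNMT3B had changes of 0.04 (adjusted p = 0.606) and -0.17 (adjusted p = 0.0503). None of these 4 passed.
Among the genes that passed, EED, a core subunit of the Polycomb complex PRC2, was 1.63-fold lower (log2 change -0.70, adjusted p = 0.000226), and its catalytic subunit EZH2 was 1.20-fold lower (-0.26, adjusted p = 0.0158). The histone demethylase KDM1A was 1.36-fold lower (-0.45, adjusted p = 6.39e-05) and its corepressor RCOR1 1.31-fold lower (-0.39, adjusted p = 0.00144). The histone methyltransferase EHMT2 was 1.31-fold lower (-0.39, adjusted p = 0.00113). The 5-methylcytosine oxidase TET3 (0.34, adjusted p = 0.00226), the chromatin remodeler ATRX (0.41, adjusted p = 0.00624) and the methyl-CpG-binding glycosylase MBD4 (0.41, adjusted p = 0.00272) were higher.
Of 23 measured somatic relatives and partners of the members, 2 were higher, 6 lower, 12 did not pass and 3 were at background level (8.70% higher and 26.1% lower, beside 12.6% and 11.8% of all genes), and 3 were lower without PC9 replicate 3. The largest fall was that of DDX5, an RNA helicase related to DDX43, 1.37-fold (log2 change -0.45, adjusted p = 0.00719). TRIM28 was 1.15-fold lower (log2 change -0.20, adjusted p = 0.0206) and TRIM27 1.36-fold lower (-0.44, adjusted p = 0.000821), both ubiquitin ligases bound by MAGE proteins. CTCF, the somatic relative of CTCFL, was 1.18-fold lower (-0.24, adjusted p = 0.0098). TSG101, a component of the ESCRT machinery, was 1.55-fold higher (0.64, adjusted p = 0.000256).

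**Figure D4:**
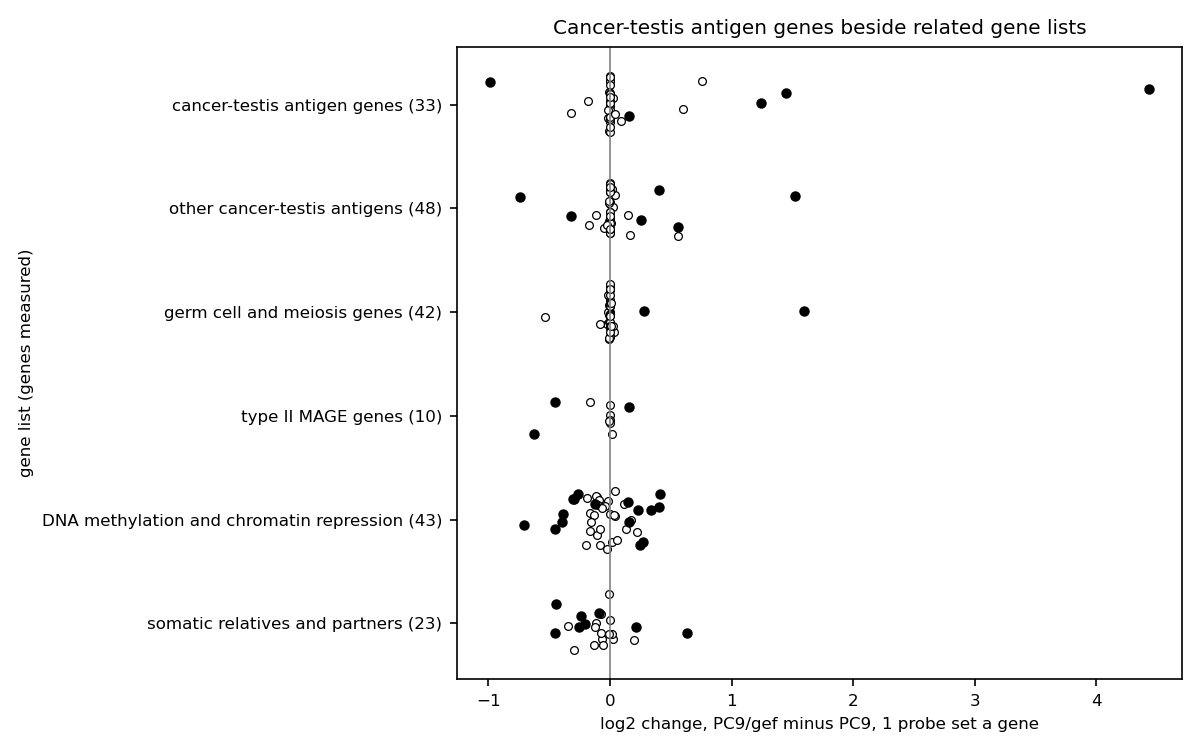
Log2 change from PC9 to PC9/gef (x axis), of the cancer-testis antigen genes and of 5 related gene lists, each point a gene read from its probe set with the highest mean, spread vertically for visibility. Filled points passed the test. CTAG2 stands apart at 4.43, and most genes of both antigen lists and of the germ cell list sit at 0, at background level.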

How the data were processed

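The authors hybridized RNA of 3 PC9 and 3 PC9/gef samples to Affymetrix Human Genome U133 Plus arrays and deposited normalized log2 values per probe set. Normalization was by GC-RMA in GeneSpring GX according to the study's methods and by RMA according to the submitters' processing notes, and no version is given in the sources used here. GC-RMA draws dim probe sets to nearly constant values, which makes spreads at background level very small. The deposited log2 values were used unchanged. The 62 control probe sets among 54675 were dropped. Of the rest, 41091 had a single gene in the platform annotation, 1801 had several, and for 11721 it named none.

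PC9/gef was compared with PC9 by limma 3.58.1 (R 4.3.3; eBayes, no trend) over all 54613 probe sets, without covariates, with Benjamini-Hochberg adjustment and a threshold of 0.05. With 3 arrays a line, the smallest two-sided p of an exact permutation test is 0.1. Each gene was read from its probe set with the highest mean. Every member gene with a probe set above background level was named, and up to 6 called genes of each comparison list with the largest change could be. Other genes named were chosen after their values were seen. They were single members at background level, neighbouring genes, DNA methyltransferases, UHRF1, SUZ12, TRIM28 and lineage markers. Chromatin genes called beyond the first 6, EZH2 and TET3 among them, were also added then. Members and lists were chosen with earlier results of these data known. Symbols are those of the platform annotation, with RefSeq (GRCh38.p14) used for names, gene order and promoters. Plots used matplotlib 3.10.9 (Python 3.11.15). The fit was tested on simulated data.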

Additional observations from a re-analysis of the deposited data

How the results depend on the processing

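Of 156 values of the 13 named genes under the alternatives, 140 kept their direction and side of the threshold, 8 lost and 7 gained a call, and 1 changed sign: MAGEA12, not called in either, went from -0.015 to 0.0026 without PC9 replicate 3 (range with each array left out -0.0394 to 0.0026). The calls for CTAG2, MAGEA10 and MAGEC2 held in each of these values, but the log2 change of MAGEC2 was 0.72 as the mean of its 2 probe sets, and without the one named _s_at it has only a probe set at background level. Member probe sets called lower, 1 in the main setting, were 2 with trend and robust moderation and with the filter on dim probe sets (MAGEB6 added), where 7 were called higher in place of 6 (XAGE2 added), and 0 with background level at the 99th percentile (6.67) or a test against a minimum change of 1.5-fold. Without probe sets named _x_at or _s_at, 3 were called higher and 2 changed over 2-fold, and 7 changed over 2-fold with the probe sets of several genes. Same-numbered replicates did not deviate together (r from -0.026 to 0.047). With the replicate number as a block none was called lower, MAGEA4 being lost (limma adjusted p = 0.111). In that fit 4 were called higher in place of 6, MAGEC1 (adjusted p = 0.0987) being among those lost. Among the comparison lists, _x_at and _s_at probe sets left out, 1 other cancer-testis antigen was lower (2 in the main setting), 4 chromatin genes were higher and 5 lower (8 and 8), 1 somatic relative or partner was higher (2), and 0 lung and epithelial markers were higher and 0 lower (1 and 2).

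Leaving out each array in turn gave 4 to 6 member probe sets called higher, 0 to 1 lower and 4 to 5 over 2-fold. It gave 2 to 3 other cancer-testis antigens higher and 2 to 3 lower, 0 to 1 type II MAGE genes higher and 1 to 3 lower, 0 to 1 germ cell and meiosis genes lower, 3 to 5 somatic relatives and partners lower, 1 to 2 lung and epithelial markers higher and 0 to 1 fibroblast markers higher. The causes of these shifts were not tested.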
